A study of Mus musculus with 18 samples.

Results

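The 44 genes described here are genes that hepatocytes express strongly, measured in RNA of whole mouse spleens. They were chosen by a list of gene symbols and selected on results of these data in which Alb, the albumin gene, differed widely between spleen libraries. All 44 symbols were found among the 19320 genes of the deposited table, whose unit is RPKM (reads per kilobase of transcript, scaled to the mapped reads of each library). The study asked how streptozotocin (STZ), a toxin of the insulin-producing beta cells, and microbiota transplants affect organs of male mice of the outbred ICR stock, and the spleens were taken at 10 weeks of age. The 18 libraries fall into 6 groups of 3. Con mice received saline, and A10 mice were dosed with AOS, oligosaccharides cut from alginate of seaweed, at 10 mg per kg. STZ mice received STZ, and STZ-A10 mice received STZ with AOS at the same dose. A10-FMT and Con-FMT mice received STZ and then oral transplants of small intestinal content, from donors given AOS and from control donors respectively. The transplant material was pooled over the donors of each kind. A10, STZ-A10 and their handling are known here from the sample labels alone. The 6 libraries of Con and A10 were therefore not injected with STZ, and the other 12 came from STZ-injected mice.

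Hepatocytes make most of the proteins of blood plasma: albumin and other carriers, apolipoproteins, clotting factors and inhibitors of proteases. They also carry the enzymes of the urea cycle, amino acid breakdown and glucose production, and the cytochromes P450 that oxidize drugs and fatty acids. The major urinary proteins (Mups) are small carriers of pheromones that the liver of male mice secretes in large amounts, and growth hormone and insulin are known to raise their expression. The adult spleen is an organ of lymphocytes, macrophages and red blood cell turnover and is not known as a source of albumin. In bulk RNA of this kind, fewer cells of a type and less RNA per cell cannot be told apart.

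The tissue label was checked first. The 10 spleen markers were above 0 in every library and summed to 1160 to 2058 RPKM in 17 of the 18 libraries. A10-FMT replicate 3 stood apart at 504.5 RPKM, and this library also held the highest Alb level. The 12 acinar pancreas markers summed to 24.2 to 1836 RPKM in the 6 libraries not injected and to 185.0 to 22590 RPKM in the 12 STZ-injected libraries, and their part in the results below was not tested. The 8 kidney markers summed to 14.1 to 21.6 RPKM in Con and 22.2 to 27.2 RPKM in STZ, and to at most 0.96 RPKM in the other 12 libraries. The 7 testis germ cell markers summed to 17.4 to 277.5 RPKM in Con and to at most 8.36 RPKM elsewhere. Con replicate 1 was the library highest in acute phase genes (1079 RPKM over 8 genes, of which Lcn2, a gene of neutrophils and inflamed tissue, made up 952 RPKM). What these markers contribute to the differences from Con and STZ was not tested. Read counts were not part of the table, and sequencing depth is therefore unknown. For Mup20, the values under 0.5 RPKM other than 0.12 were near multiples of 0.09 RPKM, which corresponds to about 11.1 reads at 1 RPKM if the lowest value is a single read.

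The genomic windows around the transcription starts are shown because most of the 44 genes moved together across libraries. RefSeq start windows of 300 bases (250 before and 50 after the start) were found for 34 of the 44 genes, on GRCm38.p6. The motif GTTAAT, the core of the recognition sequence of the liver factor HNF1, was searched on both strands. It was found for 12 of the 34 genes (35.3%), beside 8.24% of the 27025 genes with a window. The 12 genes were Alb, Gc, Vtn, Fga, Fgb, F2, Serpina1a, Serpina1b, Serpina1c, Itih1, Pck1 and G6pc. The motif TATAAA on the strand of the gene was found for 11 of the 34 genes (32.4%), beside 9.77% of all genes. CAAAGTCCA, a motif of HNF4, was found for Cyp3a11 alone (2.94%, beside 0.555% of all genes), and TTGCGCAA, a motif of C/EBP, for none of the 34 (0.207% of all genes). A match of letters is not a measured binding site. In the following windows the capitals mark GTTAAT or its reverse complement. Alb and Gc are shown as genes that were near 0 RPKM in many libraries, and Serpina1b as a gene that was high in all of them. Mup7 and Mup3 are shown as the genes with the lowest ratio of level per Alb, STZ-injected over not injected. The last pair holds no match. The Alb window is chr5:90460620-90460919 (plus strand), Gc is chr5:89457849-89458148 (minus strand), Serpina1b is chr12:103738140-103738439 (minus strand), Mup7 is chr4:60070426-60070725 (minus strand) and Mup3 is chr4:62087268-62087567 (minus strand).
Alb: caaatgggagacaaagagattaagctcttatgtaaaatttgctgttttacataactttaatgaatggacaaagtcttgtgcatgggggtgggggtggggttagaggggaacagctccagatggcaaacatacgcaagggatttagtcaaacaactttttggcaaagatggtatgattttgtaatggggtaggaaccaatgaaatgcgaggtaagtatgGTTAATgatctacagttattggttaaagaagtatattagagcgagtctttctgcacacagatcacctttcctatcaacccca
Gc: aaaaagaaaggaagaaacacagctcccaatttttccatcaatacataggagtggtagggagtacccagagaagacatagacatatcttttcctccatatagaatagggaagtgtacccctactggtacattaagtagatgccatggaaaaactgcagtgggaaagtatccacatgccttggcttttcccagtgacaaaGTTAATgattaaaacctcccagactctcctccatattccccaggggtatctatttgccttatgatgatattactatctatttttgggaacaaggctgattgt
Serpina1b: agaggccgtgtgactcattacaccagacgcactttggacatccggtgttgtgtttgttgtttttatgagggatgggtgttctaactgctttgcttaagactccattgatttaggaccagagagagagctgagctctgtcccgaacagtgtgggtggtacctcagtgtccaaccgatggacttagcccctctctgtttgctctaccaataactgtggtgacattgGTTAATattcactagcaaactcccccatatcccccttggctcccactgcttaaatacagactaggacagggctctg
Mup7: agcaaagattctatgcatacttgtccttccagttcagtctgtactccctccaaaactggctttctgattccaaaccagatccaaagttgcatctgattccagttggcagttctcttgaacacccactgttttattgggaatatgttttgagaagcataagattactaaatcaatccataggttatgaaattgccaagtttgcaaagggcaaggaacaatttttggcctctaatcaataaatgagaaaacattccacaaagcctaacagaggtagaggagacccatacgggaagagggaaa
Mup3: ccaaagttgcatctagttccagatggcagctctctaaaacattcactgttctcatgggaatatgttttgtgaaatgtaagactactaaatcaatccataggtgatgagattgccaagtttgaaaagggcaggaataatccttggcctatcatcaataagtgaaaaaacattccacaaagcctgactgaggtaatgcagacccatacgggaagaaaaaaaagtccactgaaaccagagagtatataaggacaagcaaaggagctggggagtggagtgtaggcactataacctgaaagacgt

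Alb encodes the main carrier protein of plasma (chr5:90460897-90476602, plus strand). It stood at 7.59, 105 and 98.0 RPKM in the Con libraries, at 25.2, 14.9 and 2.84 RPKM in A10, at 0.32, 1.45 and 0.95 RPKM in STZ, at 2.79, 0.25 and 0.10 RPKM in STZ-A10, at 42.3, 32.6 and 175 RPKM in A10-FMT, and at 8.80, 10.3 and 1.19 RPKM in Con-FMT. The highest library was 1747-fold above the lowest. In order of group means, A10-FMT came first (83.2 ± 79.4 RPKM, SD, n = 3), followed by Con (70.0 ± 54.2), A10 (14.3 ± 11.2), Con-FMT (6.77 ± 4.89), STZ-A10 (1.05 ± 1.51) and STZ (0.907 ± 0.566). Every pair of neighbours in this order overlapped in its libraries. Even within a group the range was wide, from 4.53-fold in STZ to 27.9-fold in STZ-A10. Alb was under 1 RPKM in 4 libraries, all of them STZ-injected without a transplant. Summed over the 36 genes with a median under 1 RPKM in those 4 libraries, the level was 316.7 ± 245.5 RPKM in Con, 85.2 ± 66.1 in A10, 5.84 ± 1.75 in STZ, 8.46 ± 8.30 in STZ-A10, 291.4 ± 212.6 in A10-FMT and 34.5 ± 29.7 in Con-FMT (SD, n = 3 each). These 36 genes together took at most 0.0654% of the summed RPKM of a library.

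**Figure D1:**
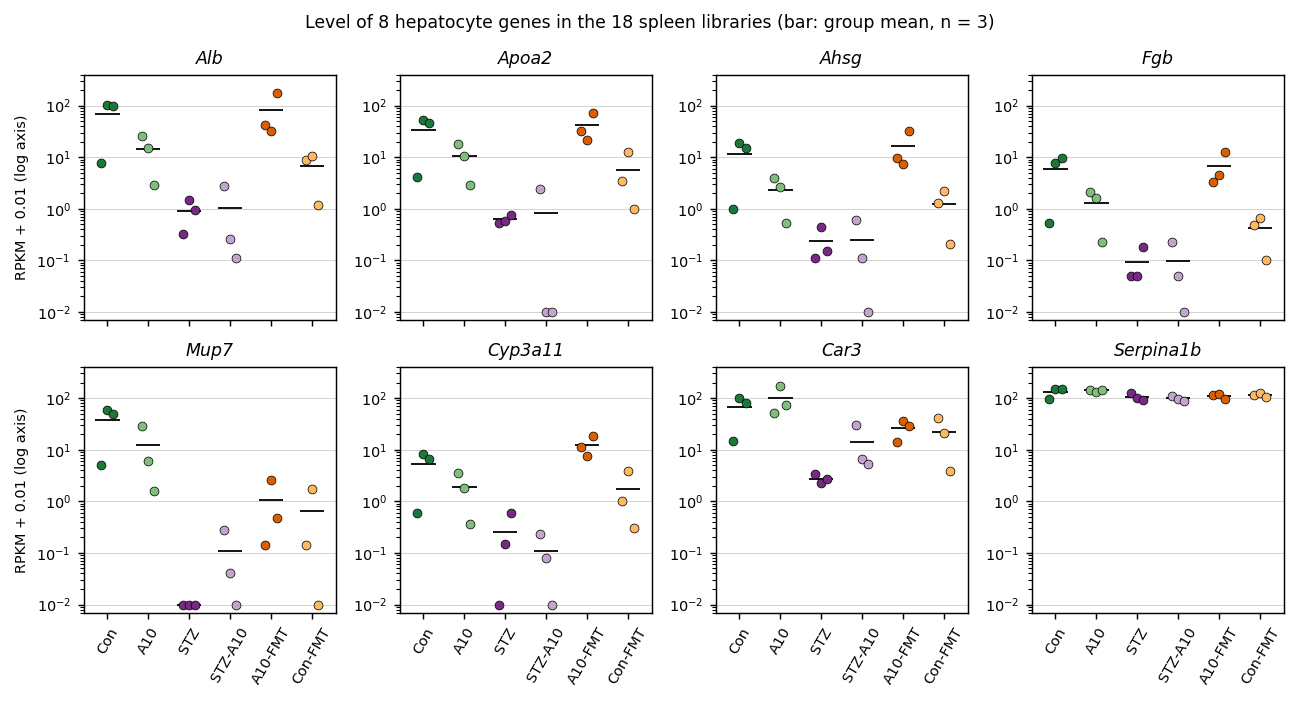
RPKM plus 0.01 on a log axis for 8 of the genes in each of the 18 libraries, coloured by group, with the group mean (n = 3) as a bar. Alb, Apoa2, Ahsg, Fgb and Cyp3a11 follow a like pattern over the groups, Mup7 is listed at 0 in all STZ libraries and stays under 3 RPKM in A10-FMT, and Serpina1b lies between 89.1 and 149.95 RPKM everywhere.

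The other carrier proteins were of both kinds. Ahsg (fetuin-A, an inhibitor of calcification) stood at 0.96, 18.9 and 15.4 RPKM in Con, at 3.86, 2.65 and 0.51 in A10, at 0.10, 0.43 and 0.14 in STZ, at 0.61, 0.10 and 0 in STZ-A10, at 9.73, 7.52 and 32.7 in A10-FMT and at 1.31, 2.2 and 0.20 in Con-FMT. It was thus low and high in the same libraries as Alb. Ttr (transthyretin, a thyroid hormone carrier), Gc (the vitamin D carrier), Rbp4 (the retinol carrier), Fetub (fetuin-B), Ambp (the precursor of bikunin) and Vtn (vitronectin) reached 2.41 RPKM (Fetub) to 20.6 RPKM (Rbp4) and had medians of 0.03 to 0.35 RPKM where Alb was under 1 RPKM. Trf (transferrin, the iron carrier) differed from these, with 43.3 to 90.5 RPKM over the 18 libraries and a median of 55.9 RPKM where Alb was under 1 RPKM. Its highest libraries, Con replicates 2 and 3, were also high in Alb.

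Among the apolipoproteins, Apoa2, a protein of high density lipoprotein, was second in level to Apoc1. Apoa2 stood at 4.07, 52.8 and 45.95 RPKM in Con, at 18.1, 10.5 and 2.91 in A10, at 0.53, 0.57 and 0.76 in STZ, at 2.45, 0 and 0 in STZ-A10, at 31.7, 22 and 70.6 in A10-FMT and at 3.45, 12.7 and 0.96 in Con-FMT. Its Pearson correlation with Alb on the log2(RPKM + 1) scale was 0.987 over the 18 libraries, the highest of the 44 genes. These points share libraries and groups, so the value is a description. Apoa1 (the main protein of high density lipoprotein) reached 25.5 RPKM, Apoc3 (an inhibitor of lipoprotein lipase) 16.6 RPKM, Apoh 7.85 RPKM and Apob (the protein of very low density lipoprotein) 1.70 RPKM. Apob, Apoa1 and Apoc3 are also intestinal genes, and the 8 intestinal markers summed to between 0.77 and 4.63 RPKM in every library. Apoc1, which macrophages also express, kept 8.01 to 57.3 RPKM throughout.

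The coagulation genes were low in level and close to Alb in pattern. Fgb, the beta chain of fibrinogen, stood at 0.51, 7.69 and 9.76 RPKM in Con, at 2.09, 1.62 and 0.22 in A10, at 0.04, 0.04 and 0.17 in STZ, at 0.22, 0.04 and 0 in STZ-A10, at 3.35, 4.48 and 12.5 in A10-FMT and at 0.47, 0.66 and 0.09 in Con-FMT. Fga and Fgg (the other fibrinogen chains), F2 (prothrombin), Plg (plasminogen), Kng1 (kininogen) and Serpinc1 (antithrombin) reached 3.07 RPKM (F2) to 8.52 RPKM (Fgg), and their correlations with Alb lay between 0.937 (Plg) and 0.957 (Fgg). All 7 genes of this group had a median under 1 RPKM where Alb was under 1 RPKM.

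The protease inhibitors split into high and low genes. Serpina1b, an alpha-1-antitrypsin gene, stood at 97.99, 149.95 and 149 RPKM in Con, at 147, 133 and 147 in A10, at 125, 99.0 and 89.9 in STZ, at 112, 96.7 and 89.1 in STZ-A10, at 114, 120.3 and 95.1 in A10-FMT and at 115, 128 and 106 in Con-FMT. It was thus high in libraries with almost no Alb. Its copies Serpina1a (2.52 to 6.38 RPKM) and Serpina1c (5.79 to 50.8 RPKM) were also above 1 RPKM in all 18 libraries. The longest coding transcripts of these copies in GENCODE M21 were 92.6% (Serpina1b and Serpina1a) to 97.9% (Serpina1a and Serpina1c) identical over their aligned bases, so reads may be shared between them and their separate levels are uncertain. Serpina3k, an inhibitor of the same superfamily, followed Alb (correlation 0.966) and ranged from 0 to 34.1 RPKM. Of the inter-alpha-trypsin inhibitor heavy chains, Itih1, Itih2 and Itih4 were at most 3.47 RPKM (Itih4), while Itih3 stayed at 1.66 to 6.11 RPKM with no relation to Alb (correlation -0.02).

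The Mups followed Alb less closely than most genes of the list, with correlations of 0.649 (Mup7) to 0.826 (Mup3). Mup7 (chr4:60066469-60070475, minus strand) stood at 5.15, 59.8 and 48.6 RPKM in Con, at 28.9, 6.08 and 1.58 in A10, at 0 in all 3 STZ libraries, at 0.27, 0.03 and 0 in STZ-A10, at 0.13, 2.54 and 0.46 in A10-FMT and at 0.13, 1.75 and 0 in Con-FMT. A10-FMT replicate 3, the library highest in Alb, was thus lower in Mup7 than each of the 6 libraries not injected. Mup3 (chr4:62083476-62087342) stood at 1.83, 44.3 and 30.6 RPKM in Con, at 11.5, 5.4 and 0.69 in A10, at 0, 0.08 and 0.25 in STZ, at 1.10, 0.08 and 0 in STZ-A10, at 1.2, 8.82 and 3.98 in A10-FMT and at 0, 1.76 and 0 in Con-FMT. Mup20 (darcin, the pheromone Mup that attracts females, chr4:62050234-62054158) stood at 0.45, 9.93 and 4.52 RPKM in Con, at 1.52, 0.56 and 0.09 in A10, at 0.19, 0 and 0.09 in STZ, at 0.19, 0.12 and 0 in STZ-A10, at 0.36, 0.82 and 1.17 in A10-FMT and at 0.18, 0.28 and 0.28 in Con-FMT. Mup7, Mup3 and Mup20 all overlapped in RPKM between the injected and the other libraries. For Mup7, A10-FMT replicate 2 (2.54) and Con-FMT replicate 2 (1.75) lay above A10 replicate 3 (1.58).

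Of the metabolic enzymes, Car3 (carbonic anhydrase 3, an enzyme of liver, muscle and fat) was by far the highest. It stood at 14.8, 101.4 and 82.1 RPKM in Con, at 50.8, 175 and 72.7 in A10, at 3.35, 2.28 and 2.64 in STZ, at 29.6, 6.66 and 5.24 in STZ-A10, at 13.9, 35.5 and 28.7 in A10-FMT and at 41.2, 21.0 and 3.84 in Con-FMT. Its library order differed from that of Alb, with the highest value in A10 replicate 2. The 7 adipose markers ranged in sum from 31.4 to 166.8 RPKM over the Con libraries, from 89.7 to 263.2 over A10, from 8.91 to 28 over STZ, from 28.2 to 77.4 over STZ-A10, from 37.5 to 99.8 over A10-FMT and from 20.1 to 140.1 over Con-FMT. The adipose sum was highest in the same library, and its correlation with Car3 over the 18 libraries was 0.954, against 0.693 between Car3 and Alb. The part of adipose RNA in the level of Car3 was not tested. Pck1 (phosphoenolpyruvate carboxykinase, an enzyme of glucose production that fat also expresses) ranged from 0.34 to 9.12 RPKM. Hpd and Tat (tyrosine breakdown), Cps1 (the first enzyme of the urea cycle), Bhmt (methionine cycle) and Tdo2 (tryptophan breakdown) reached 4.02 RPKM (Tdo2) to 12.6 RPKM (Hpd), each in A10-FMT replicate 3. G6pc (glucose-6-phosphatase) reached 1.28 RPKM, in Con replicate 2.

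The cytochromes P450 were Cyp2e1, Cyp3a11 and Cyp2c29. Cyp3a11, a drug-oxidizing enzyme, stood at 0.58, 8.37 and 6.63 RPKM in Con, at 3.53, 1.79 and 0.36 in A10, at 0, 0.14 and 0.58 in STZ, at 0.22, 0.07 and 0 in STZ-A10, at 11.3, 7.68 and 18.2 in A10-FMT and at 1.02, 3.86 and 0.29 in Con-FMT. Cyp2c29 was lower and highest in Con rather than in A10-FMT, at 0.16, 3.80 and 2.95 RPKM in Con, at 1.44, 0.46 and 0.09 in A10, at 0 in all STZ libraries, at 0.04, 0.04 and 0 in STZ-A10, at 1.31, 1.39 and 2.45 in A10-FMT and at 0.16, 0.75 and 0.05 in Con-FMT. Cyp2e1, which oxidizes ethanol and is also expressed in fat, stood at 1.56, 21.4 and 14.9 RPKM in Con, at 6.84, 18.1 and 7.84 in A10, at 0.64, 1.57 and 0.74 in STZ, at 4.94, 1.41 and 1.97 in STZ-A10, at 8.42, 14.3 and 20.9 in A10-FMT and at 8.94, 9.03 and 0.69 in Con-FMT. Its correlation was 0.866 with the adipose sum and 0.864 with Alb.

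**Figure D2:**
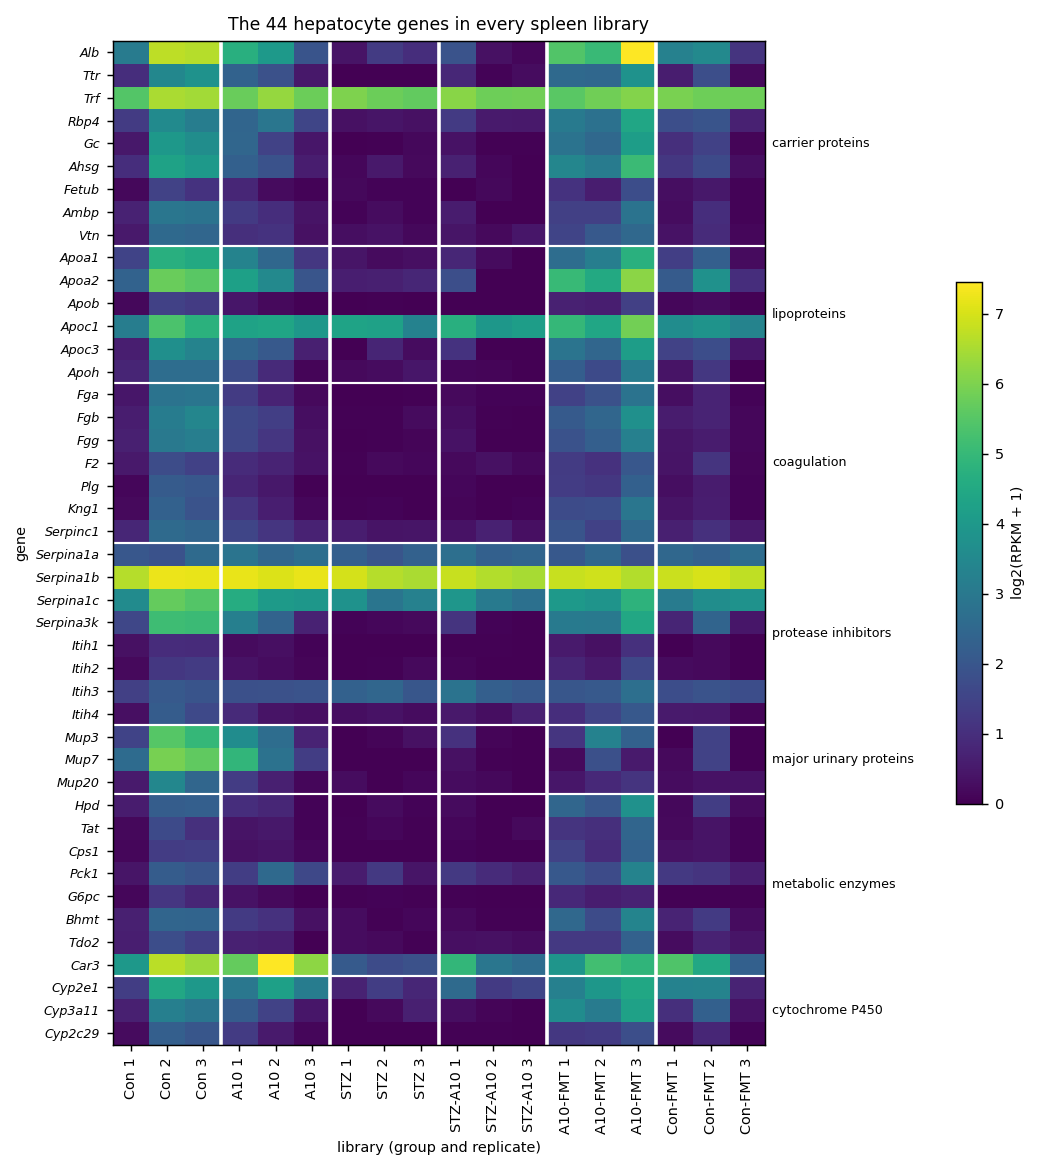
Heat map of log2(RPKM + 1) of the 44 genes (rows, grouped by role) in the 18 libraries (columns, grouped by treatment). Most rows are bright in Con replicates 2 and 3 and in A10-FMT and dark in STZ and STZ-A10, while Trf, Apoc1, Serpina1a, Serpina1b, Serpina1c, Itih3 and Car3 are above 1 RPKM in every column.

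Over the whole list, the correlation with Alb was above 0.9 for 27 of the 44 genes (Alb included), between 0.5 and 0.9 for 13 and under 0.5 for 4. The last were Trf (0.421), Serpina1b (0.47), Serpina1a (-0.239) and Itih3 (-0.022). The 8 genes with a median of at least 1 RPKM where Alb was under 1 RPKM were these 4 with Apoc1, Serpina1c, Car3 and Cyp2e1. Outside the list, 9881 genes reached 5 RPKM in at least 3 libraries, and the 10 of them nearest to Alb were Mup10 (0.921), Apoc4 (0.893), Fabp1 (0.89), Serpina1d (0.887), Mup9 (0.886), Mup1 (0.862), Rfk (0.778), Mup2 (0.772), Mrrf (0.739) and Acyp1 (0.737). The first 6 and Mup2 are also known as liver genes. Rfk, Mrrf and Acyp1 varied little, for example between 28.6 and 40.6 RPKM for Rfk. A marker of liver macrophages, Clec4f, was at most 0.16 RPKM, and it was above 0 in each of the 7 libraries with Alb over 14 RPKM and in 3 of the other 11. The limit of 14 RPKM was used for this count alone, and it lies just under A10 replicate 2 (14.9 RPKM of Alb). Above the limit of 5 RPKM used elsewhere, Con-FMT replicate 1 (8.80 RPKM of Alb) was listed at 0 for Clec4f. The split is therefore a description only. Values such as 0.03 RPKM (A10 replicates 1 and 2) rest on few reads. The 4 Kupffer cell markers together, most of which spleen macrophages share, summed to 34.1 to 87.0 RPKM. Their sum in A10-FMT (38.7 to 44.7 RPKM) lay below that in A10 (48.4 to 61.5), STZ (45.97 to 55.1) and STZ-A10 (49.9 to 87.0) and overlapped that in Con and Con-FMT.

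The group differences were compared on log2(RPKM + 1) with limma, for the 12905 genes that reached 1 RPKM in at least 3 libraries. Of the 44 genes 42 entered, and Itih1 and G6pc did not, each reaching 1 RPKM in only 1 library. The genes were chosen with these contrasts known, so their counts are set beside the share over all genes tested and nothing is read from them. In STZ against Con, 36 of 42 stood lower and 0 higher at an unadjusted p under 0.05 (6.44% and 4.63% of all genes), and the median difference was -1.64, against -0.01 over all genes. After Benjamini-Hochberg adjustment 1 of 42 passed 0.05 (0.163% of all genes), Mup7, with an adjusted p of 0.0405 (limma). No fold is given for it, since Mup7 was listed at 0 in all STZ libraries. That call held in 10 of 26 alternative settings, with adjusted p from 3.52e-07 to 0.182, and was lost for example without STZ replicate 1. In STZ-A10 against A10, 9 stood lower and 1 higher (6.42% and 3.79% of all genes), the median was -0.69, and 0 passed after adjustment (0.0542%). The interaction of STZ and AOS, tested over the same 4 groups, passed for 0 of the 42 after adjustment and for 1 at an unadjusted p under 0.05 (limma). For the interaction the share over all genes is not given here, so these counts do not show whether the STZ difference depends on AOS.

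In each of the transplant comparisons the median difference was above 0. In A10-FMT against STZ, 35 of 42 stood higher and 0 lower (1.95% and 15.2% of all genes), with a median of 1.77, against -0.15 over all genes. In Con-FMT against STZ, 1 stood higher and 0 lower (2.66% and 2.58%), with a median of 0.32, against 0.002 over all genes. That 1 gene is 2.38% of the 42, near the share over all genes. In A10-FMT against Con-FMT, 32 stood higher and 0 lower (3.49% and 20.1%), with a median of 1.44, against -0.17 over all genes. After adjustment 0 of 42 passed in each of these comparisons (0.00775%, 0.00775% and 0% of all genes, limma). STZ against Con, A10-FMT against STZ and Con-FMT against STZ share the STZ libraries, so they are not separate evidence.

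In all 12 STZ-injected against all 6 other libraries, 22 of 42 stood lower and 1 higher at an unadjusted p under 0.05 (16.2% and 5.55% of all genes), with a median of -0.62. After adjustment 3 of 42 passed (3.04% of all genes): Mup7 (difference -3.50, SE 0.51, adjusted p 0.00392), Car3 (-2.54, SE 0.50, adjusted p 0.0206) and Mup3 (-2.36, SE 0.55, adjusted p 0.0357). The Mup7 call held in 25 of 25 alternative settings, Car3 in 22 and Mup3 in 14. All 3 were called without Con replicate 1, when 26 of the 42 passed (4.53% of all genes), and only 1 of the 42 passed without Con replicate 2 (0.558%) or without A10 replicate 2 (0.86%).

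**Figure D3:**
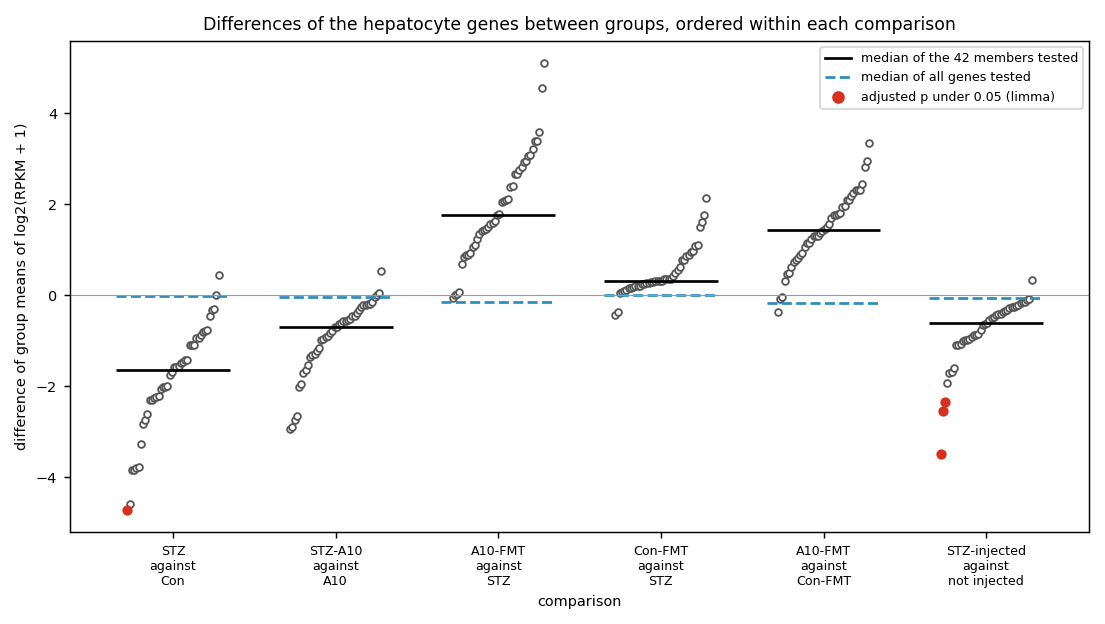
Difference of group means of log2(RPKM + 1) for the 42 genes tested, in 6 comparisons, with the median of these genes (solid) and of all 12905 genes (dashed). Red points passed an adjusted p of 0.05, namely Mup7 in STZ against Con and Mup7, Car3 and Mup3 in all injected against all other libraries.

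To compare make-up rather than amount, each gene was expressed per 100 RPKM of Alb in the 10 libraries with at least 5 RPKM of Alb. These were Con replicates 1 to 3 and A10 replicates 1 and 2 (not injected), and A10-FMT replicates 1 to 3 and Con-FMT replicates 1 and 2 (STZ-injected). Every injected library of this set also had a transplant, so that injection and transplant cannot be told apart here. The library just inside the limit held 7.59 RPKM of Alb and that just outside 2.84 RPKM. The ratio of the injected to the other mean lay within 1.5-fold of 1 for 28 of the 38 genes with a mean of at least 1 RPKM, with a median of 1.06. Among the 38 are the 8 genes with a median of at least 1 RPKM where Alb was under 1 RPKM. Their ratios also depend on that level. With that level subtracted (also from Alb), the ratio was 0.32 for Trf, 0.35 for Serpina1c and 0.44 for Car3. It was 0.82 for Serpina1a, 0.96 for Apoc1, 1.12 for Serpina1b and 1.35 for Cyp2e1, and undefined for Itih3. The count of 28 therefore does not show an unchanged make-up. The ratios without subtraction chose the genes described next, and no test was made on them. The share of all genes without overlap per Alb is not given here, so non-overlap below is a description only.

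**Figure D4:**
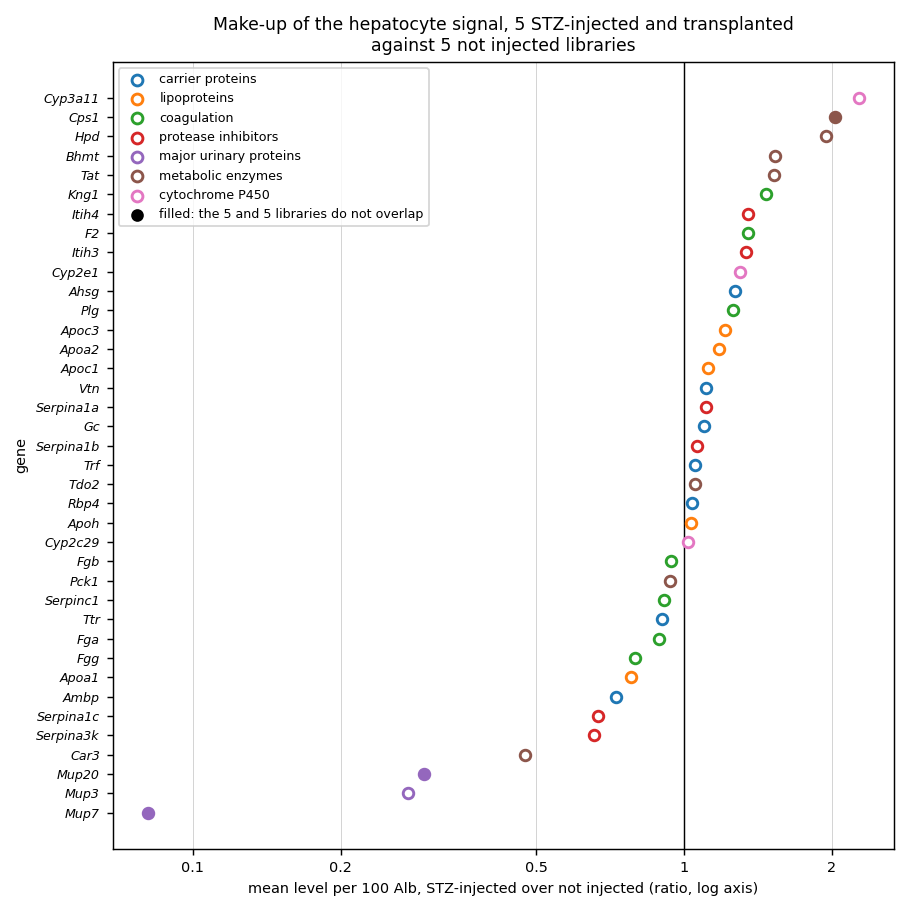
Ratio of the mean level per 100 Alb in the 5 STZ-injected libraries to that in the 5 other libraries, on a log axis, for the 38 genes with a mean of at least 1 RPKM, coloured by role. Filled points mark genes whose libraries do not overlap: Mup7 (0.0812) and Mup20 (0.295) on the low side and Cps1 (2.02) on the high side. The share of all genes without such overlap is not given here.

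The coagulation genes were the steadiest group. Their sum per 100 Alb was 38.7 ± 12.2 RPKM in the injected libraries and 38.6 ± 3.31 in the others (SD, n = 5 each). The lipoprotein genes summed to 102.8 to 325.6 and to 112.5 to 262.9. The protease inhibitors (771.5 ± 660.6 and 767.8 ± 557.7) and the metabolic enzymes (203.2 ± 185.2 and 377.9 ± 478.2) varied several-fold within both sets, and they hold Serpina1b and Car3, whose level where Alb is low is above 1 RPKM. The P450 genes summed to 78.5 ± 44.9 and 54.0 ± 46.5. All 5 sums overlapped between the sets.

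The Mup sum did not overlap. Mup3, Mup7 and Mup20 together were at 97.9, 109.1 and 85.4 RPKM per 100 Alb in Con and at 166.2 and 80.6 in A10, against 3.99, 37.4 and 3.21 in A10-FMT and 3.52 and 36.7 in Con-FMT. The means were 107.8 ± 34.5 and 17.0 ± 18.3 RPKM per 100 Alb (SD, n = 5 each), and the difference of mean log2 ratios was -3.52, with leave-one-out values from -4.03 to -3.14. Without A10-FMT replicate 3, the library low in spleen markers, it was -3.14. Mup7 alone was at 40.7 to 114.7 RPKM per 100 Alb without injection and at 0.263 to 16.96 after injection, a 12.3-fold difference of means, which was 26.8-fold without Con-FMT replicate 2. Mup20 was at 3.75 to 9.49 and at 0.67 to 2.71, a 3.39-fold difference. Mup3 was at 24.1 to 45.5 and at 0 to 27.1, so that A10-FMT replicate 2 (27.1) lay above Con replicate 1 (24.1). Its difference of means was 3.64-fold, and 6.47-fold without A10-FMT replicate 2.

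The longest coding transcripts of Mup7 and of Mup1, Mup10 and Mup9 in GENCODE M21 were 98.9%, 98.6% and 98.9% identical over their aligned bases, so the separate levels of these copies are uncertain. Mup7 and Mup3 were 83.96% identical, and Mup7 and Mup20 90.6%. The 20 Mup genes of the table were therefore also summed, a step added after the values were seen. The sum was 394.9, 552.0 and 399.8 RPKM per 100 Alb in Con and 789.9 and 544.6 in A10, against 120.4, 272.8 and 59.6 in A10-FMT and 12.95 and 442.7 in Con-FMT. Con-FMT replicate 2 lay above Con replicates 1 and 3, so the whole family overlapped between the sets (181.7 ± 175.8 and 536.2 ± 160.7, a difference of mean log2 ratios of -2.34). Mup7 made up 7.47% to 17.2% of the family sum without injection and 0.255% to 11.4% after it. Mup10, which is no member of the list, made up 18.6% to 28.8% and 4.39% to 57.3%.

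Pairs of libraries with almost the same Alb show both patterns. Con replicate 1 (7.59 RPKM of Alb) held 29.97 RPKM of all Mups, and Con-FMT replicate 1 (8.80 RPKM of Alb) held 1.14. A10 replicate 3 (2.84 RPKM of Alb) held 14.7 RPKM of all Mups, and STZ-A10 replicate 1 (2.79 RPKM of Alb) held 13.8, with 1.58 and 0.27 RPKM of Mup7. The second pair lies below the limit on Alb, and its injected mouse had no transplant.

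**Figure D5:**
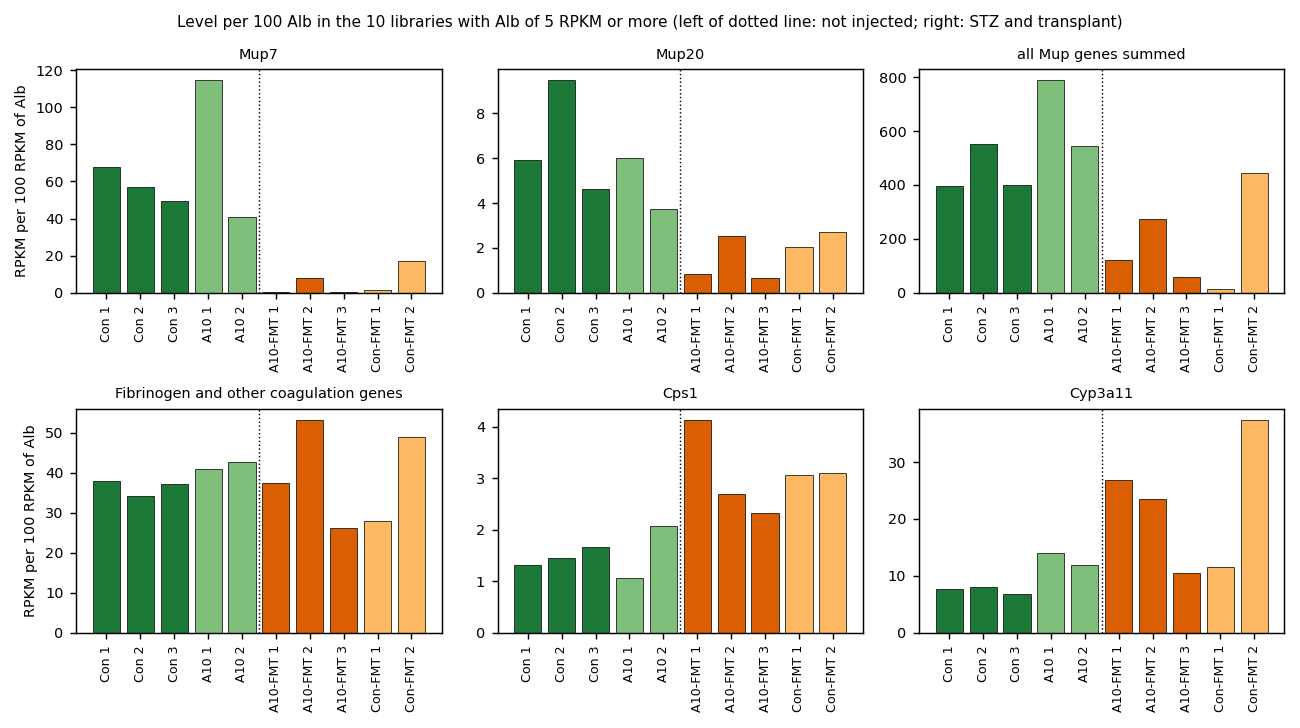
RPKM per 100 RPKM of Alb in the 10 libraries with at least 5 RPKM of Alb, as bars from 0, coloured by group, with the libraries not injected left of the dotted line. Mup7 and Mup20 are lower in all 5 injected libraries, the sum of all 20 Mup genes overlaps because of Con-FMT replicate 2 (442.7), the coagulation sum lies between 26.1 and 53.3 throughout, and Cps1 is higher in all 5 injected libraries.

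The other genes with low ratios were Car3 (0.474), which overlapped widely between the sets, with 16.4 to 468.3 RPKM per 100 Alb after injection and 83.8 to 1173 without it, and Serpina3k (0.655), with 8.07 to 41.6 and 26.4 to 33.7. The Car3 ratio rests on A10 replicate 2 (1173), without which it turned to 1.15. At the high end, Cps1 was at 1.32, 1.45 and 1.66 RPKM per 100 Alb in Con and 1.07 and 2.08 in A10, against 4.14, 2.70 and 2.34 in A10-FMT and 3.07 and 3.10 in Con-FMT. Its levels themselves were only 0.10 to 4.08 RPKM in these libraries. Cyp3a11 had the highest ratio (2.27), with 7.64, 8 and 6.77 RPKM per 100 Alb in Con, 14 and 11.98 in A10, 26.8, 23.6 and 10.4 in A10-FMT and 11.6 and 37.4 in Con-FMT. Hpd, Bhmt and Tat, enzymes of amino acid metabolism, followed with overlap of the sets. Hpd was at 1.25 to 15.2 after injection and 3.41 to 6.46 without (ratio 1.95), Bhmt at 5.34 to 13.8 and 4.20 to 7.64 (1.53), and Tat at 1.71 to 3.13 and 1.05 to 2.68 (1.53).

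Liver genes outside the list were read in the same way. Of 31 further hepatocyte genes 14 were tested in all injected against all other libraries, with 0 called after adjustment (3.04% of all genes) and 2 lower at an unadjusted p under 0.05 (16.2%). At the same unadjusted limit 14 of 14 stood lower in STZ against Con (6.44%), 0 in STZ-A10 against A10 (6.42%), and 12, 1 and 12 stood higher in A10-FMT against STZ (1.95%), Con-FMT against STZ (2.66%) and A10-FMT against Con-FMT (3.49%), with 0 called after adjustment in each. Mat1a, which makes S-adenosylmethionine, was 3.55-fold higher per Alb in the injected libraries (6.55 ± 2.001 against 1.85 ± 0.525 RPKM per 100 Alb, SD, n = 5 each, no overlap), and Uox (urate oxidase) was 2.01-fold higher with overlap. Fabp1, Cyp2f2 and Hamp had ratios within 1.5-fold of 1. Hao1 (0.363), F12 (0.373, and 0.202 without Con-FMT replicate 2) and C9 (0.589), named after their values were seen, were lower per Alb in the injected libraries, with overlap and at levels under 1 RPKM on average. Of 11 liver genes known to be higher in males, none of them among the 44, 6 were tested. In all injected against all other libraries 2 were called lower and 0 higher after adjustment (2.22% and 0.814% of all genes). These were Mup1 (difference -3.36, SE 0.69, adjusted p 0.0234, limma) and Mup21 (-1.04, SE 0.27, adjusted p 0.0489, limma). Mup1 is a near-identical copy of Mup7 (98.9% over aligned bases), so its call is not separate from that of Mup7. Hsd3b5 and Elovl3, named after their values were seen, were listed at 0 in all 5 injected libraries of the per-Alb comparison. They stood at 0.04, 0.93 and 0.84 RPKM (Hsd3b5) and 0.08, 1.37 and 0.54 RPKM (Elovl3) in Con and at 0.14 and 0.28, and 0.18 and 0.04 RPKM, in A10 replicates 1 and 2. Cyp4a12a, also named afterwards, was at 0.80 to 1.55 RPKM per 100 Alb without injection and at 0 to 0.291 after it. Other genes of this list overlapped between the sets per Alb. They were Cyp2d9 (ratio 0.915, but 0.390 without Con-FMT replicate 2), Selenbp2 (0.942, but 0.609 without Con-FMT replicate 1), C6 (1.22, but 0.874 without Con-FMT replicate 1), Slco1a1 (0.597) and Mup2 (0.458, listed at 0 in Con replicate 1). Where Alb was under 1 RPKM, C6 stood at 5.70 to 10.9 RPKM, against 3.75 to 6.99 RPKM in the 10 libraries with Alb. Selenbp2 stood at 0.45 to 1.01 RPKM there, against 0.68 to 1.54 RPKM in the 5 injected libraries. The ratios of C6 and Selenbp2 therefore also depend on the level they keep where Alb is low.

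Of 10 liver genes known to rise in fasting 5 were tested. In all injected against all other libraries 2 were called higher and 0 lower (0.814% and 2.22% of all genes). The called genes, Acot1 and Pdk4, had medians of 5.70 and 11.1 RPKM in the 4 libraries where Alb was under 1 RPKM, above their means in the 10 libraries with Alb (2.37 and 2.46 RPKM). Cyp4a14, a fatty acid hydroxylase that was named after its values were seen, had almost no such level (median 0) and stood at 0.86, 0.17 and 1.42 RPKM in A10-FMT, at 0, 0.17 and 0.03 in Con-FMT, and at 0 to 0.06 RPKM in Con and A10. Of 9 insulin-induced liver genes 7 were tested, with Acaca, Fasn and Thrsp (3 of 7) called lower and 0 higher (2.22% and 0.814% of all genes). These genes of fat synthesis are expressed in adipose tissue too, and Acaca had a median of 4.69 RPKM where Alb was under 1 RPKM. The 9 liver genes known to be higher in females summed to 0.35 to 2.01 RPKM in every library, and none was tested. Among them Cyp2b9, named after its values were seen, was listed at 0 in all 6 Con and A10 libraries and stood at 0.08 to 0.81 RPKM (0.246 to 1.16 RPKM per 100 Alb) in the 5 injected libraries of the per-Alb comparison. Of 8 acute phase genes 4 were tested, with 1 called lower, Orm1, and 0 higher (2.22% and 0.814% of all genes). Orm1 (orosomucoid 1) was 3.84-fold lower per Alb in the injected libraries (9.39 ± 6.14 against 36.0 ± 53.8 RPKM per 100 Alb), with overlap. This rests on Con replicate 1 (130.8 RPKM per 100 Alb), without which the difference was 1.31-fold.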

How the data were processed

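Spleen RNA of 18 mice, 3 per group, was sequenced on an Illumina HiSeq after Trizol extraction. The values deposited by the authors are RPKM per gene. The study's methods name SOAPaligner, the submitters' processing notes name Bowtie 0.12.2 and the build mm10, and the annotation version is not given in the sources used here. The table has 19326 lines, of which 6 with 3 repeated names were left out. A total of 26 names had been turned into dates, and 0 columns had no sample. Columns summed to 673221 to 884539. Depth is unknown, so no counting interval is given and the number of libraries limits precision. How the authors divided reads between near-identical copies is not given in the sources used here.

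Groups were taken from the sample labels. The labels do not say from which cage or litter a sample came, so p-values measure the spread between these samples. The tests between groups used limma 3.58.1 with a trend (R 4.3.3) on log2(RPKM + 1), a scale that understates changes of low genes, over genes of at least 1 RPKM in at least 3 libraries. All 18 libraries entered 1 model with a coefficient per group. P-values are two-sided and adjusted by the Benjamini-Hochberg method (threshold 0.05). The script was tested on simulated data. Level per 100 Alb is the RPKM of a gene or sum divided by that of Alb, in libraries with Alb of at least 5 RPKM. Alternatives were another pseudocount (0.1), no filter, quantile normalization, median centring, no trend, only the groups compared, array weights, a replicate block, other limits on Alb (2 and 10 RPKM), another denominator, subtraction of the level where Alb is under 1 RPKM, and leaving out each library.

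The genes, their roles and the other lists were chosen with earlier results of these data known. Named are Alb, up to 3 genes per role with the highest mean RPKM, genes past the adjusted threshold, the 5 highest and the 5 lowest ratios per Alb, and the 10 genes outside the list closest to Alb. Positions are from GENCODE M21 (GRCm38) by symbol, and start windows from RefSeq (GRCm38.p6). Transcripts were compared by global alignment with free end gaps.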

Additional observations from a re-analysis of the deposited data

How the results depend on the processing

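The level per 100 Alb kept its value within the spread between libraries for all 6 roles under every alternative run, 85 values in all, and that includes the sum over all Mup genes, which was chosen after seeing the data. On the log2 scale the SD within the sets was 1.34 for the Mups, 1.48 for the protease inhibitors and 1.43 for the metabolic enzymes. It was 0.339 for the coagulation genes. Staying within so wide a spread does not show that a value was unchanged. The counts of genes called moved: 35 of 155 alternative counts were more than 1.5 times off, as were 7 of 149 medians by more than the spread between libraries, with none reversed. In STZ against Con the count of 1 went to 0 with no filter, with quantile normalization, with median centring, with only the groups compared and with the replicate block, and to 6 (0.364% of all genes tested) with a pseudocount of 0.1. A pseudocount of 0.1 moved the medians to -3.62 (STZ against Con), -1.93 (STZ-A10 against A10), 3.79 (A10-FMT against STZ), 1.35 (Con-FMT against STZ), 2.70 (A10-FMT against Con-FMT) and -1.33 (injected against not injected), as its construction widens differences of low values. Array weights gave 41, 24, 38, 14, 35 and 41 called genes in the same order, where they called 60.7%, 28.2%, 51.6%, 38.8%, 66% and 66.1% of all genes tested, and a median of -2.37 in STZ against Con. In A10-FMT against STZ, the fit of only the groups compared called 2 (0.0387%). The cause of these shifts was not tested. Leaving out 1 library at a time gave 0 to 34 called genes in STZ against Con (34 without Con replicate 1, beside 0.891% of all genes, 15 without A10-FMT replicate 3, beside 1.81%, and 0 without Con replicate 2, A10 replicate 2, STZ replicate 1 or 2, A10-FMT replicate 1 or any library of STZ-A10 or Con-FMT), 0 to 29 in A10-FMT against STZ (29 without Con replicate 1, beside 0.643%, and 3 without STZ replicate 3 or A10-FMT replicate 2, beside 0.674% and 0.062%), 0 to 27 in A10-FMT against Con-FMT (27 without A10-FMT replicate 2, beside 20.3%, and 4 without Con replicate 1, beside 0.093%) and 1 to 26 in injected against not injected (26 without Con replicate 1, beside 4.53%, 5 without A10-FMT replicate 2, beside 9.21%, and 1 without Con replicate 2 or A10 replicate 2, beside 0.558% and 0.86%).

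The replicate numbers in the titles were not found to pair the samples. Of 45 pairs of groups and numbers, 14 had correlated deviations over 0.1, with a range of -0.385 to 0.571. The replicate block changed no call count by more than 1.5 times other than that of STZ against Con. Values under 1 RPKM rest on few reads, and the values per Alb of Cps1, Mup7, Mup3, Mup20, Hsd3b5, Elovl3, Cyp2b9 and Cyp4a14 include such values.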
